A study of Drosophila melanogaster with 14 samples.

Results

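Acetylcholine synthesis and reception were followed through 5 Drosophila melanogaster genes: ChAT, which encodes choline acetyltransferase, and the nicotinic receptor subunit genes nAChRalpha1, nAChRalpha2, nAChRbeta1 and nAChRbeta2. They were chosen by symbol alone. Every probe set that the platform's gene table pairs with exactly 1 of these symbols was taken, which gave 6 of the 13966 probe sets that are not controls: 2 for ChAT and 1 for each subunit. All signals below are hybridisation intensities on a linear scale, after each array was scaled to a common trimmed mean. A signal can be compared between groups for 1 probe set, but not between probe sets.

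The study hybridised RNA of fly heads to 14 single-colour Affymetrix arrays in 3 groups, to find transcripts of photoreceptor cells by mRNA tagging. The wild-type strain Canton-S gave 6 whole-head samples, called CS heads here. Rh1 heads were 4 samples of whole heads of the genotype Rh1-GAL4/P{UAS-dPABP-FLAG}, in which a promoter active in the outer photoreceptors R1-R6 drives a FLAG-tagged poly(A)-binding protein (the labels also write hPABP for the transgene, and which form it was is not settled here). IP samples, 4 in number and labelled photoreceptor cells R1-R6, were RNA recovered by anti-FLAG immunoprecipitation from heads of that genotype. About 100 heads went into each whole-head sample and about 200 into each IP sample. Only the IP heads were treated with 1% formaldehyde, for 30 min, before they were homogenised and sonicated. Sex and age were not in the labels used here. The labels do not say whether replicates came from separate batches of flies, so the p-values rest on a spread between samples that may be technical, and the small number of arrays limits the precision.

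Acetylcholine is the main fast excitatory transmitter of the insect central nervous system, and ChAT makes it from choline and acetyl-CoA. Nicotinic receptors are channels of several subunits around a central pore that opens when acetylcholine binds. The alpha subunits carry a pair of neighbouring cysteines at the binding site, and the beta subunits lack that pair. The outer photoreceptors R1-R6 signal with histamine, and cholinergic neurons lie among the optic lobe and brain cells that a whole head also holds. By the RefSeq gene table of assembly Release 6, ChAT, nAChRalpha1, nAChRalpha2 and nAChRbeta2 lie on chromosome arm 3R. There nAChRalpha2 and nAChRbeta2 are neighbours with 0 genes between them, nAChRalpha1 is separated from nAChRalpha2 by 2 genes, of which 1 is coding, and the vesicular transporter gene VAChT lies inside the span of ChAT.

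Replicates correlated across probe sets at 0.980 to 0.994 in CS heads, 0.985 to 0.994 in Rh1 heads and 0.847 to 0.976 in IP. The ratio of the 5′ to the 3′ control probe set of eIF-4a, a translation factor, ranged from 0.444 to 0.593 in CS heads and from 0.604 to 0.678 in Rh1 heads. In IP replicates 1 to 4 it was 0.531, 0.0284, 0.209 and 0.0432, with the lowest values in replicates 2 and 4. For the GAPDH and actin controls all 4 IP arrays were below every head array, at 0.0093 to 0.202 against 0.291 to 0.541 and at 0.0167 to 0.135 against 0.317 to 0.513. For GAPDH and actin, lower 5′ signal thus went with the whole IP group, while for eIF-4a IP replicate 1 was within the range of CS heads. The part of lower 5′ signal in the differences between IP and heads was not tested. The IP label was checked against 12 photoreceptor marker genes: 11 were higher in IP than in Rh1 heads, with a median log2 fold of 2.32, and their summed signal was 39425 to 66380 in IP against 20429 to 21194 in Rh1 heads and 56185 to 61476 in CS heads. The summed signal of 9 pan-neuronal genes was 2341 to 4312 in IP, 6061 to 6950 in Rh1 heads and 4651 to 5570 in CS heads. Markers of glia, muscle and fat body had lower sums in IP than in Rh1 heads, and no marker was at 0 on any array. Gene by gene, 4 of 7 glia markers were called lower and 2 higher, and 5 of 7 fat body markers lower and 1 higher. All 7 muscle markers were called lower. Over all probe sets tested, 25.7% were called lower and 21.8% higher.

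In the immunoprecipitate ChAT, nAChRalpha2 and nAChRbeta2 were lower than in whole heads of the same genotype, nAChRbeta1 fell to a signal near the bottom of the arrays, and nAChRalpha1 was dim in every group and differed little. The mean IP signal was 39.4% and 41.2% of the Rh1 head mean for the probe sets of ChAT, 61.6% for nAChRalpha2, 75.9% for nAChRbeta2 and 8.36% for nAChRbeta1. Between the whole-head genotypes the pattern was different. Of the 4 probe sets in the limma fit, those called there were that of nAChRalpha2 and 1 of ChAT, in opposite directions, and nAChRalpha1, tested alone, differed slightly (exact permutation p = 0.0333).

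**Figure D1:**
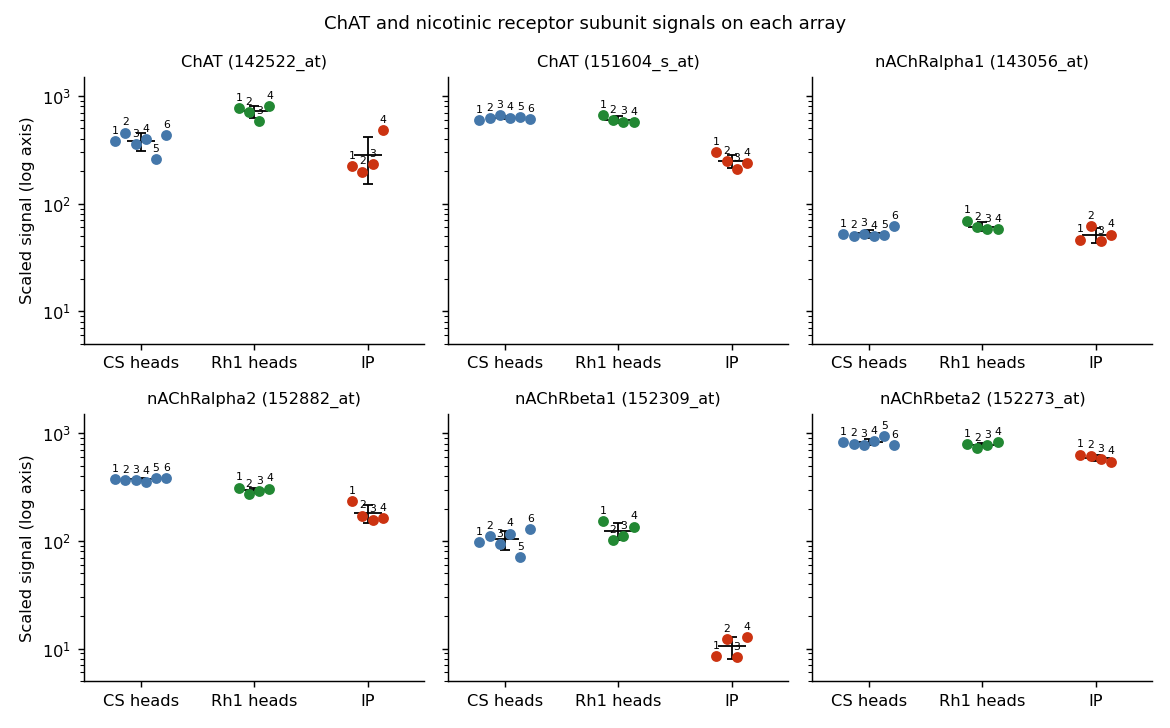
Scaled signal (log axis) of each member probe set on each array, by group. Points are arrays, digits are replicate numbers, and black bars give the mean and SD of the group (n = 6 CS heads, 4 Rh1 heads, 4 IP). IP points of nAChRbeta1 lie between 8.293 and 12.87, far below both head groups, while those of nAChRalpha1 overlap both.

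For ChAT, the probe set with the suffix _s_at ran from 601.4 to 670.3 in the 6 CS heads, with a median of 627.2. In Rh1 heads it read 666.1, 600.8, 579.1 and 571.7 in replicates 1 to 4. In IP it read 299.3, 247.5, 211.2 and 238.5. Every IP array lay far below every head array, and the head groups overlapped. That suffix marks a probe set that can match more than 1 transcript. Fold changes are on the scale log2(signal + 32), which understates changes of low signals, and were tested with limma over 9776 probe sets with Benjamini-Hochberg adjustment; a probe set was called at an adjusted p under 0.05. Against Rh1 heads, ChAT had a log2 fold of -1.185 in IP (SE 0.11, adjusted p = 2.34e-05, 95% interval -1.44 to -0.94). In these bulk samples, fewer cells of a type and less RNA per cell cannot be told apart, and neither can fixation and immunoprecipitation as such be separated from the tagged cells.

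The other ChAT probe set, with the plain suffix _at, also fell in IP but read differently between the genotypes. Its signal in CS heads ran from 258.8 to 458, with a median of 388.9. In Rh1 heads it read 766.9, 712.2, 588.4 and 812.1, and in IP it read 223.9, 198.3, 232.8 and 480.5. All Rh1 heads were above all other arrays, and IP replicate 4 stood above the other IP arrays and above every CS head. The log2 fold of IP against Rh1 heads was -1.32 (SE 0.24, adjusted p = 0.00142, limma), and it differed from that of the _s_at probe set by -0.14 (SE 0.31, exact permutation p = 0.686).

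Between Rh1 heads and CS heads the probe sets of ChAT disagreed. Signal at the _at probe set rose by 0.87 on the log2 scale (SE 0.13, adjusted p = 6.48e-05, limma), to 189% of the CS head mean. At the _s_at probe set the log2 fold was -0.06 (SE 0.06, adjusted p = 0.425), with a 95% interval of -0.18 to 0.07. The difference between these folds was 0.93 (SE 0.15, exact permutation p = 0.00476, the smallest that 4 against 6 arrays allow), so no single direction holds for the gene in this comparison. With the mean of both probe sets, ChAT had a log2 fold of 0.41 (adjusted p = 0.000521).

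Of the alpha subunits, nAChRalpha2, whose product is also known as SAD, had an order over all 3 groups. Its signal ran from 357 to 386.9 in CS heads, with a median of 373.2. Rh1 heads read 313.9, 271.8, 289.5 and 306.3, and IP read 234.6, 172.1, 158.1 and 163.3. No group overlapped another: CS heads were highest, Rh1 heads lay between, and IP was lowest, with replicate 1 nearest to the heads. The log2 fold was -0.63 for IP against Rh1 heads (SE 0.12, adjusted p = 0.00191, limma) and -0.31 for Rh1 heads against CS heads (SE 0.05, adjusted p = 0.000196). For IP against CS heads it was -0.94 (SE 0.09, adjusted p = 4.15e-06), which shares its arrays with the other comparisons.

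The signal of nAChRalpha1, whose product is also known as ALS, was low throughout. It ran from 49.54 to 61.66 in CS heads, with a median of 51.33, read 69.41, 60.43, 57.66 and 57.5 in Rh1 heads, and read 46.22, 62.03, 44.61 and 51.63 in IP. The groups overlapped, and in IP between 9.44% and 16% of all probe sets were lower. It missed the filter, the 30th percentile of mean log2 signal (about 110), so it was tested alone by a two-sided exact permutation test over arrays. Its SE and 95% intervals come from limma without a filter. IP and Rh1 heads differed by -0.17 on the log2 scale (SE 0.09, exact permutation p = 0.114, 95% interval -0.36 to 0.02). Rh1 heads and CS heads differed by 0.14 (SE 0.05, exact permutation p = 0.0333). That p was 0.0952 without Rh1 head replicate 1, and limma without a filter gave an adjusted p of 0.0522. IP and CS heads differed by -0.03 (SE 0.07, exact permutation p = 0.629, 95% interval -0.19 to 0.12).

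Of the beta subunits, nAChRbeta1, the non-alpha subunit also known as ARD, had a very low signal in IP. Its signal ran from 70.67 to 129.1 in CS heads, with a median of 104.5. Rh1 heads read 152.2, 101.7, 110.1 and 135.9, and IP read 8.479, 12.17, 8.293 and 12.87. The head groups overlapped, and each IP array was far below the lowest head array. Only 0.487% to 0.852% of all probe sets on the IP arrays were lower. The table holds no detection calls, so whether these IP signals lie above background was not tested. This probe set also missed the filter on its mean over all arrays, so its SE and 95% interval come from limma without a filter. The log2 fold was -1.88 for IP against Rh1 heads (SE 0.11, exact permutation p = 0.0286, the smallest that 4 against 4 arrays allow), and limma without a filter gave an adjusted p of 1.16e-06. At this level the added constant sets the size of the fold: it was -3.47 with a pseudocount of 1 and -0.87 with the highest constant tried. Rh1 heads and CS heads differed by 0.22 (SE 0.11, exact permutation p = 0.176, 95% interval -0.03 to 0.46).

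The other beta subunit, nAChRbeta2 (SBD), kept most of its signal in IP. It ran from 784.4 to 938 in CS heads, with a median of 813.9, read 792.3, 730, 782.2 and 823.8 in Rh1 heads, and read 634.1, 621.6, 573.3 and 545.7 in IP. All IP arrays were below all head arrays, and the head groups overlapped. Against Rh1 heads the gene fell by 0.38 in IP on the log2 scale (SE 0.09, adjusted p = 0.00729, limma). The fold of Rh1 heads against CS heads was -0.08 (SE 0.06, adjusted p = 0.285, 95% interval -0.22 to 0.05).

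**Figure D2:**
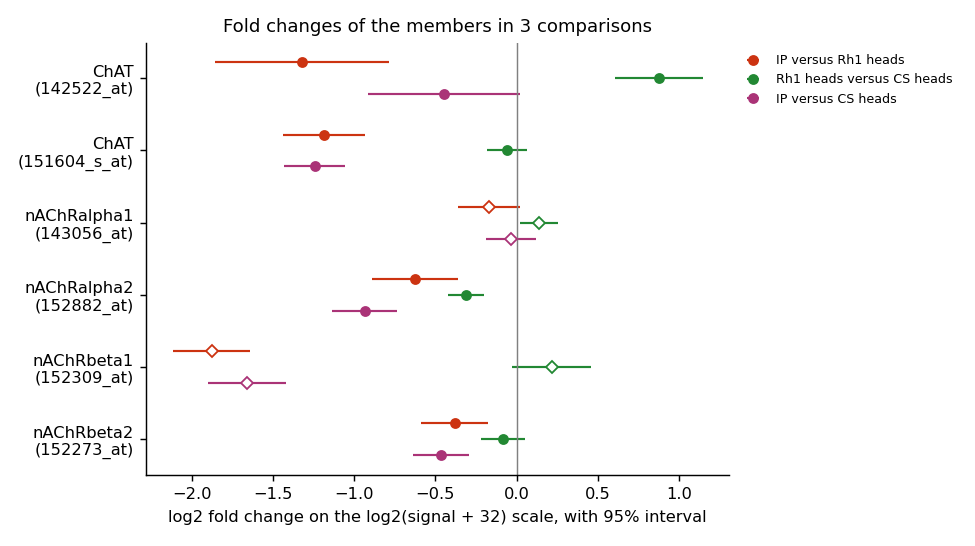
Log2 fold on the scale log2(signal + 32), with its 95% interval, of each member probe set in the 3 comparisons. Open symbols are probe sets below the filter, with intervals from limma without a filter. The IP folds of nAChRbeta1 reach -1.88, and the ChAT probe sets part between Rh1 heads and CS heads, at 0.87 and -0.06.

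In IP against Rh1 heads all 4 member probe sets in the fit were called lower and their groups did not overlap. Over all probe sets tested 25.7% were called lower, 21.8% higher, and 46.7% had groups that did not overlap. With the probe sets below the filter included, 5 of the 6 were called lower, against 20.9% of all. The folds of these members were nonetheless inside the range of the whole array: 5.77% of tested folds were below that of ChAT at its _at probe set, 7.25% below that at its _s_at probe set, 16.5% below that of nAChRalpha2 and 24.6% below that of nAChRbeta2. For nAChRbeta1, which was not among the tested probe sets, the base is all 13966, of which 1.82% had a lower fold. The median fold of all tested probe sets was 0.01, and that of the 3 tested member genes was -0.63.

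**Figure D3:**
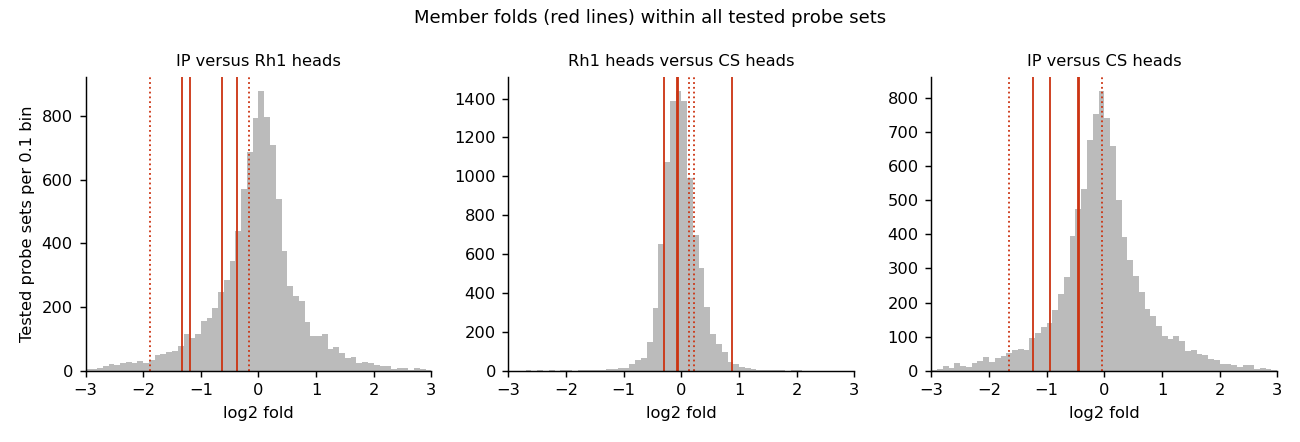
Distribution of the log2 fold over the tested probe sets, in a panel for each comparison. Members are marked by lines (dotted where the probe set was below the filter). In IP against Rh1 heads the median of all is 0.01. There every member lies to its left, with nAChRbeta1 at -1.88 nearest to the lower end.

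In Rh1 heads against CS heads, 1 of the 4 probe sets in the fit was called higher (ChAT at its _at probe set) and 1 lower (nAChRalpha2), both without overlap. The background there was 24.3% called higher, 29.8% lower and 38.8% without overlap, so calls on 2 of 4 probe sets are near what the whole table gives. In IP against CS heads 3 of the 4 were called lower, against 34.6% of all probe sets. In that comparison 26.5% were called higher, 48.8% had groups without overlap, and 28.2% were called lower when no filter was applied. There ChAT at its _s_at probe set fell by 1.24 (SE 0.09, adjusted p = 2.03e-07, limma) and nAChRbeta2 by 0.46 (SE 0.08, adjusted p = 0.000336). For nAChRbeta1 the log2 fold was -1.66 (SE 0.11, exact permutation p = 0.00476).

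The exception was the _at probe set of ChAT, with a log2 fold of -0.45 against CS heads (SE 0.21, adjusted p = 0.0909, limma). Here 1 array on either side decided the call: it was -0.71 (adjusted p = 0.00087) without IP replicate 4 and -0.54 (adjusted p = 0.0437) without CS head replicate 5. IP replicate 4 also had an eIF-4a ratio of 0.0432 and the lowest photoreceptor marker sum, 39425, and the part of either in this signal was not tested.

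The members did not fall equally in IP. The log2 differences between pairs of the 5 genes, each taken within an array and at its brightest probe set, were compared between IP and Rh1 heads, and 7 of the 10 pairs passed an exact permutation test (adjusted p = 0.0408 each). ChAT fell more than nAChRalpha2 by 0.56 (SE 0.06) and more than nAChRbeta2 by 0.81 (SE 0.09). The other 5 pairs past the threshold include nAChRbeta1 or nAChRalpha1, whose low signals the added constant compresses most, so the sizes of those differences are not given. The order of ChAT and nAChRbeta1 depended on it: their log2 folds were -1.185 and -1.88 with the constant of 32, and -0.96 and -0.87 with the highest one tried. The pairs not past the threshold were nAChRalpha1 with nAChRalpha2 (difference 0.46, SE 0.15), nAChRalpha1 with nAChRbeta2 (0.21, SE 0.09) and the genome neighbours nAChRalpha2 and nAChRbeta2 (-0.24, SE 0.09, exact permutation adjusted p = 0.114). Between Rh1 heads and CS heads those neighbours did differ, by -0.23 (SE 0.05, exact permutation adjusted p = 0.019), as 1 of 5 pairs past the threshold. All 10 pairs passed in IP against CS heads, 7 of them with nAChRbeta1 or nAChRalpha1. There ChAT was taken at its _s_at probe set, with a log2 fold of -1.242. Its _at probe set had -0.447, close to the -0.464 of nAChRbeta2, and pairs with that probe set were not tested. The folds of the ChAT probe sets differed by 0.80 (SE 0.32, exact permutation p = 0.00476). With the mean of a gene's probe sets, 8 pairs passed.

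Over the 14 arrays, each gene's nearest probe sets were taken by the root mean square difference of log2 signal after centring on CS heads. For the _s_at probe set of ChAT these were Cep164 (0.092), AP-1gamma (0.112) and Nt5b (0.113). For nAChRalpha2 they were Agpat4 (0.106), nocte (0.106) and CG1636 (0.107), and for nAChRbeta1 CG11147 (0.132), bumpel (0.153) and CG3257 (0.165). Nearest to nAChRbeta2 was VGAT, the gene of the vesicular transporter of GABA (0.068), then otp (0.073) and mRpS26 (0.074). The flat profile of nAChRalpha1 was nearest to CG18273 (0.071), CG44422 (0.084) and CG13807 (0.086). Among the members, ChAT and nAChRalpha2 were closest to each other at 0.225, and nAChRalpha1 and nAChRbeta1 farthest apart at 0.884, so no member had another among its nearest 3.

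Other genes of cholinergic transmission were taken from a list of 17, of which 13 were paired with a probe set and 11 passed the filter. Of those 11, 7 were lower in IP than in Rh1 heads, 2 were higher and 2 were not called, with a median log2 fold of -0.48. Of genes for other transmitters (GABA, glutamate, amines) 13 were tested, which gave 11 lower, 0 higher and a median of -0.57. The 7 tested pan-neuronal genes gave 4 lower, 0 higher and a median of -1.11. With paired genes below the filter included, these medians were -0.61 over 14 genes and -0.85 over 9. Over all probe sets tested, 25.7% were called lower and 21.8% higher in this comparison, with a median of 0.01. No difference between the lists, or between a list and all probe sets, was tested.

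Among receptor subunits outside the 5 genes, nAChRalpha7 fell most in IP. At the probe set with the higher mean over all arrays it was 103.9 ± 25.1 (SD, n = 4) in IP against 334.6 ± 16.4 in Rh1 heads (SD, n = 4). The log2 fold there was -1.45 (adjusted p = 1.44e-05, limma). At the other it was 37.72 ± 6.31 against 376.1 ± 33.6, a log2 fold of -2.55 (adjusted p = 1.62e-07). Also lower were nAChRalpha3 (-0.68, adjusted p = 0.00031), nAChRalpha5 (-0.48, adjusted p = 0.00548) and nAChRbeta3 (-0.33, adjusted p = 0.0255). For nAChRalpha4 the fold at the tested probe set was -0.17 (adjusted p = 0.61), over IP signals from 176.1 to 542.1. At its probe sets below the filter the folds were -0.542 without overlap (exact permutation p = 0.0286) and -0.315 with overlap (exact permutation p = 0.143). The muscarinic receptor mAChR-B, a G protein-coupled receptor for acetylcholine, fell by 0.58 (adjusted p = 0.00659, limma), and mAChR-C was dim in all groups, with means of 29.25 to 30.74.

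The genes around transmitter turnover were lower where they were called. Ace, the acetylcholinesterase that breaks acetylcholine down, had 312.8 ± 178 (SD, n = 4) in IP against 797.6 ± 73.3 in Rh1 heads (SD, n = 4), for a log2 fold of -1.39 (adjusted p = 0.00279, limma). ChT, whose name is that of a choline transporter, was below the filter, with 33.03 ± 10.6 against 153 ± 21.8 and no overlap (exact permutation p = 0.0286). AcCoAS, the acetyl-CoA synthetase that serves metabolism at large, fell by 2.24 (adjusted p = 8.96e-06), and ATPCL, which makes acetyl-CoA from citrate, had a fold of -0.22 (adjusted p = 0.293). Sums of muscle markers (5556 to 7233 in IP, 34756 to 38748 in Rh1 heads) and of fat body markers (11096 to 17884 against 68172 to 74743) moved the same way, and their part in these signals was not tested.

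The 2 genes that rose in IP encode no receptor and no enzyme of acetylcholine. RIC-3 is named for the nicotinic receptor chaperone of Caenorhabditis elegans. Its probe set with the higher mean over all arrays had 534.8 ± 56.3 (SD, n = 4) in IP against 319.3 ± 17.6 in Rh1 heads (SD, n = 4). The log2 fold there was 0.69 (adjusted p = 0.000374, limma). Its other probe set, the brighter in both of these groups, had 564.4 ± 249 against 361.6 ± 39.5. That fold was 0.51 (adjusted p = 0.142, limma). CG13920, listed as NACHO after the mammalian nicotinic receptor chaperone, had 1195 ± 181 against 893.2 ± 74.1, a log2 fold of 0.40 (adjusted p = 0.0265). So the receptor subunits called in this comparison were lower in IP while both genes named for chaperones were higher, at 1 of 2 probe sets for RIC-3.

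**Figure D4:**
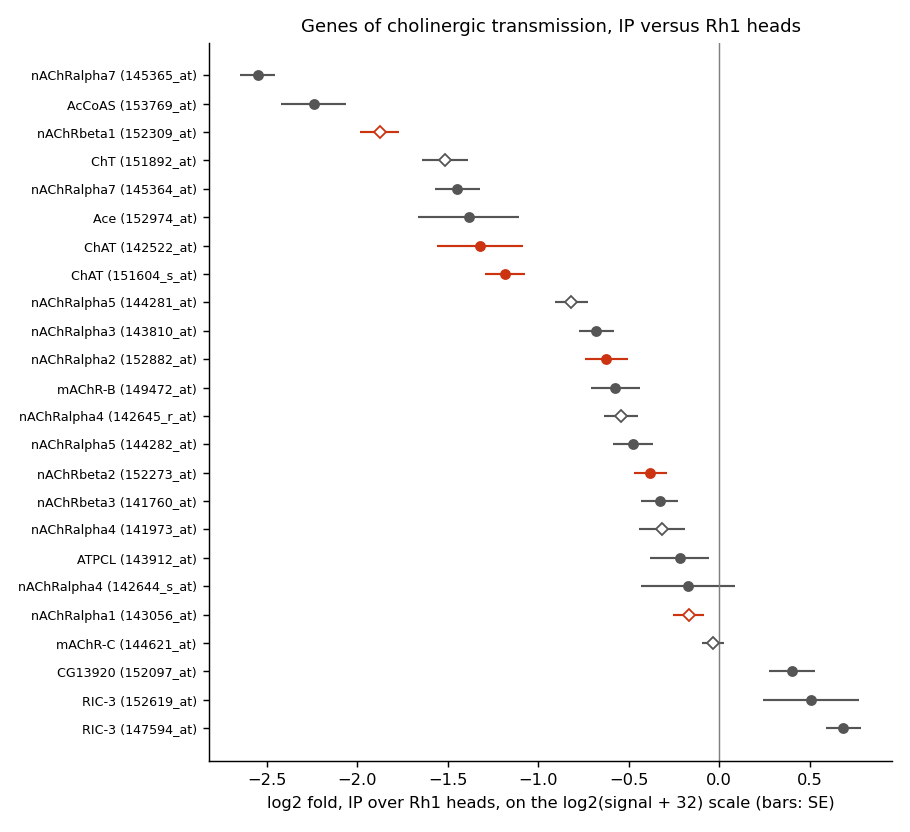
Log2 fold of IP against Rh1 heads on the scale log2(signal + 32), for each member probe set (red) and each probe set of the other cholinergic genes (grey). Bars give the SE. Open symbols are below the filter, with their SE from limma without a filter. RIC-3 and CG13920 lie right of 0, at 0.69 and 0.40 for their called probe sets, and nAChRalpha7 and AcCoAS lie farthest left, at -2.55 and -2.24.

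Between Rh1 heads and CS heads the other cholinergic genes gave calls in both directions: 5 of 11 were higher, 1 lower and 5 not called, with a median log2 fold of 0.04 against -0.03 for all tested probe sets, of which 24.3% were called higher and 29.8% lower. Higher in Rh1 heads were Ace (0.73, adjusted p = 4.73e-05, limma), nAChRalpha3 (0.20, adjusted p = 0.0203), nAChRalpha4 (0.52, adjusted p = 7.2e-05), nAChRalpha7 and CG13920. The probe sets of RIC-3, like those of ChAT, disagreed, with folds of -0.27 at the one brighter over all arrays and 0.62 at the other. Of the tested pan-neuronal genes 6 of 7 were higher in Rh1 heads, with a median of 0.44, or 0.34 over all 9 paired. Of the photoreceptor markers, 10 of 12 were lower, with a median of -1.15. In IP against CS heads the cholinergic list gave 7 lower, 2 higher and 2 not called, with a median of -0.45, where 34.6% of all tested probe sets were lower and 26.5% higher.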

How the data were processed

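The authors deposited linear intensity values, 1 for each of 14010 probe sets (44 of them controls) on every array. How probes were summarised and scaled is not given in the sources used here. The arrays' medians were 180.1 to 201.8, and their 2% trimmed means, 309.3 to 371.1, differed by more than 5%, so all arrays were brought to the average trimmed mean. Probe sets were named by the platform's gene table, where 12442 of 13966 had 1 gene, 327 several and 1197 none. All 5 genes matched the RefSeq table by gene identifier. The arrays name no genome build, so coordinates are left out.

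Values were log2(signal + 32). Probe sets at or above the 30th percentile of mean log2 signal were tested (9776) with limma 3.58.1 in R 4.3.3 (lmFit, eBayes with a trend), two-sided, on the arrays of the 2 groups compared, with Benjamini-Hochberg adjustment over all of them. Probe sets below the filter, and differences between members or probe sets, had a two-sided exact permutation test over arrays. A gene is represented by its probe set of highest mean log2 signal over all arrays. Numbers of IP replicates follow the accessions and pair nothing. Replicate numbers of the head groups did not pair samples: deviations of same-numbered samples correlated at -0.112 to 0.104. Any 2 replicates had at most 1 identical value in common.

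The members, lists, tests and alternatives were chosen with earlier results of these data known. Named are every probe set of the 5 genes, the listed cholinergic genes and the 3 probe sets most like each member. The paired list leaves out VAChT, nAChRalpha6, mAChR-A and qvr, which were not analysed here. The fit was tested on simulated data that kept the unequal spread of the groups: more of its calls were false than the 5% aimed at, most in IP against CS heads, so adjusted p-values near the threshold are weak evidence. Alternatives were other pseudocounts, filters, scalings (none, median, quantile, cyclic loess), array weights, eBayes without a trend, 1 fit over all 14 arrays, the mean of a gene's probe sets, leaving out arrays and a replicate block. Python 3.11.15 with numpy 2.4.6, pandas 2.3.3, scipy 1.17.1 and matplotlib 3.10.9 made the tables and figures.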

Additional observations from a re-analysis of the deposited data

Results flagged for a closer look

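Of 18 sets of replicate values of the members, 2 had an array far from the others by Dixon's test, which chance alone flags in about 1 in 20 groups. ChAT at its _at probe set read 480.5 in IP replicate 4, and the gap to the next IP array was 0.878 of the whole range. At the _s_at probe set that array read 238.5, inside the range of the other IP arrays, 211.2 to 299.3. The value of nAChRalpha1 in CS head replicate 6, 61.66, stood apart from the other CS heads by 0.746 of the range.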

How the results depend on the processing

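The number of member probe sets called was 4 in IP against Rh1 heads (3 to 5 over the alternatives), 2 in Rh1 heads against CS heads (2 in each alternative) and 3 in IP against CS heads (3 to 4). In IP against Rh1 heads the 3 arose with the mean of a gene's probe sets, where 3 genes were tested and all were called. The 5 arose without a filter, where all 6 probe sets were tested. The count of all probe sets called in IP against Rh1 heads, 4638, was 6965 with array weights. In Rh1 heads against CS heads it was 5291, and 3021 in a fit of all 14 arrays. Leaving out 1 array at a time gave 3778 to 5367, 4600 to 5347 and 5585 to 6531 calls in the 3 comparisons. Without IP replicates 2 and 4, 0 member pairs passed in IP against Rh1 heads, because 2 against 4 arrays cannot give an exact permutation p below 0.0667; for the same reason nAChRbeta1, at -1.95, no longer passed. Leaving out 1 array gave 7 to 10 pairs there, 5 to 7 in Rh1 heads against CS heads and 9 to 10 in IP against CS heads.

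Among single folds, ChAT in Rh1 heads against CS heads went from -0.06 at its brightest probe set to 0.408 with the mean of both probe sets. The fold of the other probe set alone was 0.87. For nAChRalpha1 in IP against CS heads, leaving out 1 array gave folds from -0.093 without IP replicate 2 to 0.005 without IP replicate 3, within its error. The lowest fold over all alternatives was -0.130, without IP replicates 2 and 4. The fold of nAChRalpha1 in IP against Rh1 heads was -0.23 without IP replicate 2 (exact permutation p = 0.0286). In Rh1 heads against CS heads it had exact permutation p = 0.081 with quantile normalisation and 0.0571 with cyclic loess. ChAT at its _at probe set in IP against CS heads passed with array weights (-0.69, limma adjusted p = 1.45e-05) and without IP replicates 2 and 4 (-0.65, limma adjusted p = 0.00397). The cause of these changes was not tested. With a replicate block, a number that does not pair the samples, 4703 probe sets and 2 member probe sets were called in Rh1 heads against CS heads. IP arrays spread more than head arrays (median SD of log2 signal 0.221 in IP, 0.098 in Rh1 and 0.096 in CS heads), so adjusted p-values of IP comparisons rest on a pooled spread that neither group has.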
